A study of Mus musculus with 23 samples.

Results

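Iron uptake, iron storage and heme synthesis were followed in brown adipose tissue (BAT) through 10 genes. These were chosen by name for their roles in these pathways, with earlier results of these data known. They were Tfrc, Slc11a2 and Slc40a1 for iron transport, Fth1 and Ftl1 for storage, Aco1 and Ireb2 for iron sensing, and Alas1, Cpox and Fech for heme synthesis. All 10 were among the 14651 genes measured by RNA-seq, and none was removed by a filter on low values. The question asked of them was how they changed after 6 h at 4°C, and whether the loss of the mitochondrial calcium uniporter altered their levels or their response.

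The 23 mice were males of 8 to 12 weeks on a background labelled C57BL/6, and each library came from 1 mouse. All of them carried Mcu[fl/fl], an allele in which exon 2 of Mcu, the gene for the pore-forming subunit of the uniporter, lies between loxP sites. Control mice carried no Cre, and BAT-Mcu-KO mice carried 1 copy of a Cre transgene driven by the Ucp1 promoter, so that deletion was directed to brown adipocytes and not to the other cells of the tissue. At room temperature (RT) there were 6 control and 6 BAT-Mcu-KO mice, and at 4°C there were 5 and 6. Mice at 4°C were housed singly in cages without bedding and, unless stated otherwise, without food. In some of the authors' other comparisons of 6 h at RT and 4°C, on protein or plasma, mice at RT were fasted as well. For the mice profiled here the food status at RT is not given in the sources used, so cold and loss of food cannot be told apart. In bulk tissue, fewer cells of a type and less RNA per cell cannot be told apart either.

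Cells take up iron mainly as transferrin bound to the transferrin receptor, which is carried into endosomes, where the iron is reduced and released into the cytosol. Iron that is not used at once is held in ferritin, a hollow shell built of heavy (Fth1) and light (Ftl1) subunits, or leaves the cell through ferroportin (Slc40a1). In mitochondria, iron is built into iron-sulfur clusters and into heme, and both are needed by the respiratory chain, with which brown fat is densely packed. The balance is set in large part after transcription. When iron is scarce, 2 RNA-binding proteins, encoded by Aco1 and Ireb2, bind stem-loops in messenger RNAs called iron-responsive elements. Binding in a 5′ UTR blocks translation, and binding in the 3′ UTR of Tfrc stabilises the message.

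The letters of these elements are shown for reference. The pattern searched for is that of the known elements, and the 10 genes were chosen for iron and heme. Matches among them are therefore not an independent result. The reference transcripts (GENCODE M21 on GRCm38) were searched in their UTRs for a stem-loop with an unpaired C, 5 bases, the loop CAGTGN and 5 bases that pair with the first 5. Capitals mark the 6-base loop. Such a stem-loop stood in the 5′ UTR of Fth1 (chr19:9982733-9982759, plus strand), Ftl1 (chr7:45459780-45459806, minus strand) and Slc40a1 (chr1:45925466-45925492, minus strand), and 4 stood in the 3′ UTR of Tfrc (chr16, plus strand, at 32631220-32631246, 32631599-32631625, 32631664-32631690 and 32631711-32631737).
Fth1: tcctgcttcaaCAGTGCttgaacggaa
Ftl1: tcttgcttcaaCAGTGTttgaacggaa
Slc40a1: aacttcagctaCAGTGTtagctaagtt
Tfrc a: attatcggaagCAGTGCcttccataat
Tfrc b: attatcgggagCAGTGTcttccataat
Tfrc c: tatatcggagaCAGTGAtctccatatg
Tfrc d: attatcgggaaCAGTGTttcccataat
Over 21901 protein-coding genes, 160 (0.731%) held such a stem-loop in a UTR, 31 (0.142%) in the 5′ UTR and 129 (0.589%) in the 3′ UTR. No match was found in the UTRs of Slc11a2, Aco1, Ireb2, Alas1 and Cpox, which says only that these letters are not there. The pattern asks for 5 unbroken pairs, so an element with a further bulge in its stem would be missed. Matches in Fech were not kept, so the search says nothing about that gene. Alas2, the erythroid form of the first heme enzyme, also matched in its 5′ UTR, whereas Alas1 did not. RNA-seq measures how much message is present and not how much of it is translated.

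The libraries held between 7129271 and 21006347 reads assigned to the genes of the table, of which 23.1% to 38.1% came from mitochondrial genes. Mcu averaged 110 ± 22.5 normalized counts in control mice at RT and 107 ± 26.8 at 4°C, against 35.1 ± 10.03 and 33.9 ± 6.60 in BAT-Mcu-KO mice (SD). It was lower in BAT-Mcu-KO mice at both temperatures, with no overlap between genotypes (log2 fold change −1.66 ± 0.22 (SE), limma adjusted p = 0.0010 at RT, and −1.61 ± 0.23, adjusted p = 0.0037 at 4°C). Ucp1, the uncoupling protein that defines brown fat, rose 2.58-fold in the cold in control mice and 2.78-fold in BAT-Mcu-KO mice (limma adjusted p = 1.0e-10 and 1.3e-11). Of 9 brown adipocyte markers, Ucp1, Elovl3 and Dio2 were called higher in the cold in both genotypes, and Prdm16 lower in both (log2 −0.71 and −0.73). Cox8b (−0.48), Adipoq (−0.38) and Cidea (−0.32) were called lower in control mice and differed by −0.20, −0.01 and −0.09 in BAT-Mcu-KO mice, without a call. The part of these falling markers in the falls given below was not tested. Markers of skeletal muscle, which borders the fat pad, summed to between 16.2 and 45148 normalized counts in single mice, and all 9 missed the threshold by cold in both genotypes. The sum of 6 erythroid markers (globins, Alas2 and Slc4a1) ranged from 1885 to 6966, and none of them was called by cold in either genotype. Endothelial markers moved with temperature. Their 6 genes summed to 3362 to 4606 in control mice at RT and 5718 to 9888 in the cold, and to 3415 to 4811 and 5270 to 9199 in BAT-Mcu-KO mice, with Pecam1, Kdr and Cldn5 called higher and Tie1 lower in both genotypes. Emcn was called lower in control mice (log2 −0.42) and not in BAT-Mcu-KO mice (0.01), and Cdh5 was called in neither. The part of endothelial cells in the results that follow was not tested.

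Cold changed most of these genes. The 10 were chosen with earlier results of these data known, so their counts beside all genes are descriptions and not a test of an excess. In control mice, 9 of the 10 passed the test, 2 higher and 7 lower at 4°C than at RT, where 46% of all genes passed, 22.3% higher and 23.7% lower (limma on log2(normalized count + 1), 1 model over all 23 mice, Benjamini-Hochberg adjustment over 14651 genes, called at an adjusted p under 0.05). The median log2 change of the 10 was −0.45, against −0.02 over all genes. In BAT-Mcu-KO mice 7 of 10 passed, 1 higher and 6 lower, with 43.3% of all genes passing (21.4% higher and 21.9% lower), and their median was −0.39, against −0.02 over all genes. Ftl1 was the 1 gene called higher in both genotypes, and Aco1, Alas1, Cpox, Fech, Fth1 and Slc11a2 were called lower in both. Groups did not overlap for 5 of the 10 in control mice (Ftl1, Aco1, Alas1, Fech and Slc11a2), where the background was 25.2% of all genes, and for 4 of the 10 in BAT-Mcu-KO mice (Ftl1, Aco1, Alas1 and Cpox), where it was 24.2%.

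**Figure D1:**
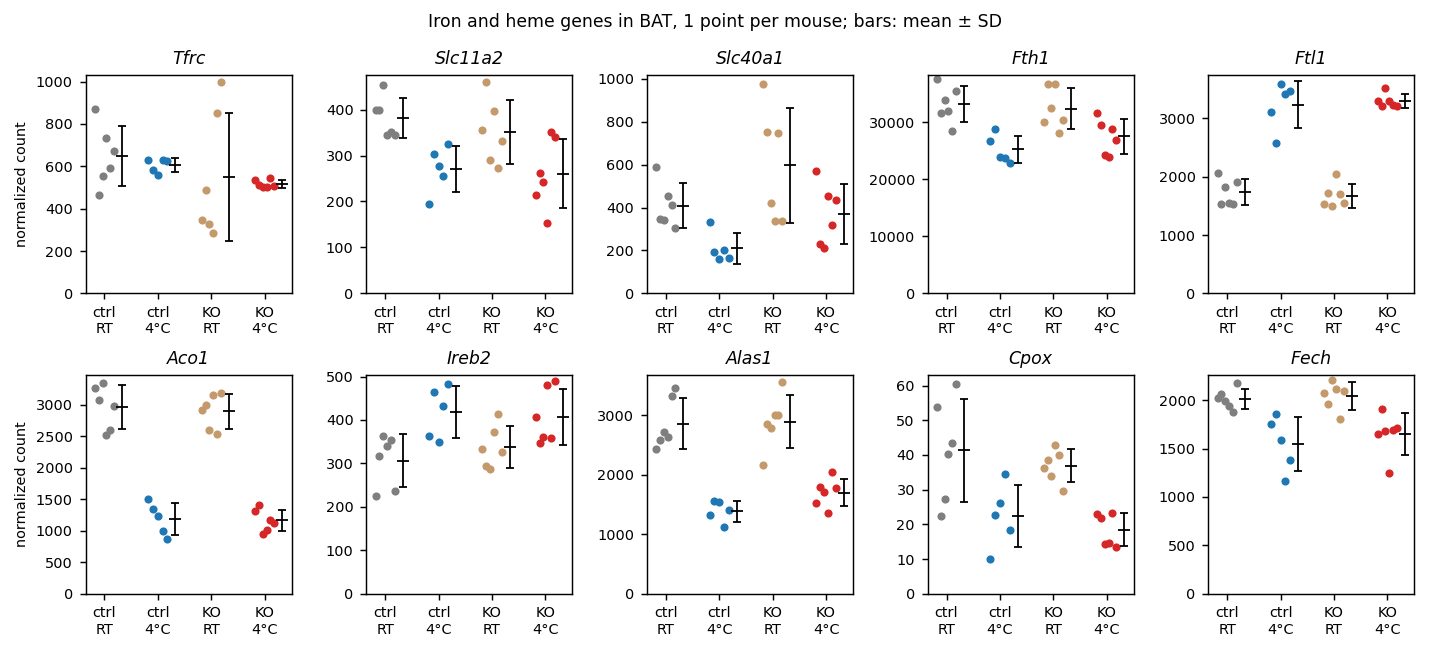
Normalized counts of the 10 iron and heme genes (vertical axes from 0, 1 panel per gene) in the 4 groups. Each point is 1 mouse, and the bar beside it is the group's mean ± SD. Aco1 and Alas1 lie lower and Ftl1 higher in every mouse at 4°C than in any mouse of the same genotype at RT, while Tfrc differs more between mice at RT than at 4°C.

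**Figure D2:**
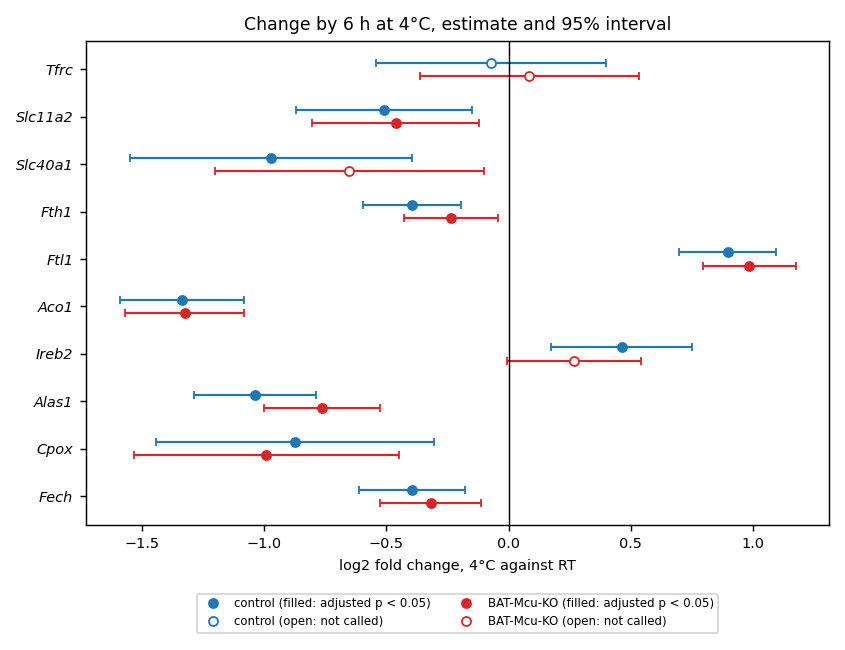
Log2 fold change of the 10 genes between 4°C and RT in control (blue) and BAT-Mcu-KO (red) mice, with bars for the 95% confidence interval. Filled points passed an adjusted p of 0.05 and open points did not, and the estimates run from −1.34 for Aco1 in control mice to 0.99 for Ftl1 in BAT-Mcu-KO mice.

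Tfrc encodes the transferrin receptor, the entry point of transferrin-bound iron (chr16:32608920-32632794). Its normalized count ran from 465 through a median of 632 to 871 in control mice at RT and was 631, 581, 559, 631 and 626 in the 5 control mice kept cold. Among BAT-Mcu-KO mice it ran from 283 through 417 to 996 at RT and from 501 through 511 to 543 at 4°C. The groups overlapped, and Tfrc was the 1 gene of the 10 called in neither genotype (log2 fold change −0.07 in control, 95% interval −0.54 to 0.40, and 0.09 in BAT-Mcu-KO, −0.36 to 0.54). These intervals leave room for a change of moderate size in either direction. What differed was the spread, described here without a test: the coefficient of variation was 22.1% and 54.9% at RT in control mice and in BAT-Mcu-KO mice, and 5.54% and 3.41% at 4°C. Of the 6 BAT-Mcu-KO mice at RT, 2 had counts of 851 and 996 and the other 4 lay between 283 and 489. Reticulocytes carry much transferrin receptor, and the erythroid sum in those 2 mice was 5320 and 1885, near both ends of its range of 1885 to 5461 in that group. The muscle sum was 32.5 and 35551 in the same 2 mice. The part of these cells in the Tfrc values was not tested.

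Slc11a2 encodes DMT1, which moves ferrous iron out of the endosome (chr15:100387898-100425072). It ran from 345 through 375 to 454 normalized counts in control mice at RT and was 194, 304, 278, 255 and 326 in those at 4°C, so that every control mouse at 4°C lay below every one at RT. It fell 1.42-fold (log2 −0.51 ± 0.17 (SE), limma adjusted p = 0.019), but without the first control mouse at 4°C the change was −0.39 and missed the threshold (adjusted p = 0.072). That mouse had the library of lowest depth. In BAT-Mcu-KO mice the count ran from 273 through 345 to 461 at RT and from 154 through 253 to 350 at 4°C. The fall there was of similar size, 1.38-fold, with overlapping groups (log2 −0.46 ± 0.17, limma adjusted p = 0.026), and the call was lost without any 1 of 4 BAT-Mcu-KO mice (replicates 2 and 4 at RT, 1 and 4 at 4°C), with log2 changes of −0.32 to −0.42, or in a fit of only those 2 groups (adjusted p = 0.052). Part of Slc11a2, 6.33% of its exon length, overlaps Gm5475 on the opposite strand, and reads were counted without regard to strand.

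Slc40a1 encodes ferroportin, the known exporter of iron from cells (chr1:45908068-45926523). Control mice at RT ran from 306 through 380 to 591 normalized counts, and those at 4°C had 334, 194, 158, 203 and 164. The first of these mice lay within the range at RT and the other 4 below it. Ferroportin message fell 1.96-fold in control mice (log2 −0.97 ± 0.28 (SE), limma adjusted p = 0.0061). In BAT-Mcu-KO mice it ran from 337 through 585 to 978 at RT and from 211 through 378 to 570 at 4°C, with a log2 difference of −0.65 ± 0.27 that just missed the threshold (limma adjusted p = 0.051) and passed it under 7 other settings. Macrophages, which recycle iron from red cells, also express ferroportin. Their 6 measured markers summed to 631 to 943 in control mice at RT and 743 to 1125 at 4°C, and to 457 to 863 and 993 to 1289 in BAT-Mcu-KO mice. Of these 6, the scavenger receptor Cd163 alone was called by cold in control mice (higher, log2 1.17). The others differed there by 0.56 for Cd68, 0.17 for Mrc1, 0.05 for Csf1r, 0.02 for Adgre1 and 0.02 for Lyz2. In BAT-Mcu-KO mice the macrophage markers Cd163, Cd68, Mrc1 and Lyz2 were called higher. Their part in the Slc40a1 values was not tested.

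Ferritin changed in opposite directions in its 2 subunits. Fth1, the heavy chain with the ferroxidase centre (chr19:9980598-9985098), was by far the most abundant message of the 10. It ran from 28432 through 32902 to 37612 normalized counts in control mice at RT and was 26632, 28831, 23914, 23770 and 22936 at 4°C, with only the second mouse inside the range at RT. The fall was 1.32-fold (log2 −0.40 ± 0.10 (SE), limma adjusted p = 0.0018). BAT-Mcu-KO mice ran from 28107 through 31464 to 36701 at RT and from 23974 through 27827 to 31694 at 4°C. The groups overlapped, and the 1.18-fold fall passed narrowly (log2 −0.24 ± 0.09, limma adjusted p = 0.044), missing under quantile normalization (−0.13, adjusted p = 0.21), without the variance trend and without any 1 of 6 of the mice.

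Ftl1, the light chain that favours iron nucleation inside the shell (chr7:45457944-45459884), rose. Its count ran from 1532 through 1685 to 2064 in control mice at RT and was 3113, 2581, 3597, 3411 and 3476 at 4°C. Among BAT-Mcu-KO mice the values went from 1491 through 1623 to 2039 at RT and from 3205 through 3260 to 3518 at 4°C. Every mouse at 4°C lay above every mouse at RT in each genotype, and the rise was 1.86-fold in control mice and 1.98-fold in BAT-Mcu-KO mice (log2 0.90 ± 0.10 and 0.99 ± 0.09, limma adjusted p = 3.5e-08 and 3.5e-09). The level of Ftl1 is uncertain, because 66.0% of the 25-base stretches of its transcripts occur in other annotated genes and 57.1% occur in the pseudogene Ftl1-ps1, and only reads with a single best place were counted. Of its exon length, 26.5% also overlaps Gm10252 on the opposite strand. The near-identical Ftl2 rose 2.13-fold in control and 1.87-fold in BAT-Mcu-KO mice (limma adjusted p = 2.7e-05 and 0.00015), and reads of the 2 copies may be split between them. Fth1 shared 4.47% of its 25-base stretches with other genes.

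Set against each other per kb of exon within each mouse, light chain was 13.5% ± 0.76 of heavy chain in control mice at RT and 33.8% ± 6.94 at 4°C (SD). In BAT-Mcu-KO mice the share was 13.4% ± 1.41 and 31.3% ± 4.24. These ratios restate the changes already given and were not tested. The share itself is uncertain, because Ftl1 reads may be split with its copies. The divisor is also the annotated exon length (3.469 kb for Fth1), and the length of the transcripts present was not measured.

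The 2 iron sensors also parted. Aco1 encodes IRP1, which is cytosolic aconitase while it holds an iron-sulfur cluster and binds iron-responsive elements once the cluster is lost (chr4:40143081-40198338). Its normalized count ran from 2513 through 3026 to 3349 in control mice at RT and was 1503, 1351, 1225, 990 and 874 at 4°C. Among BAT-Mcu-KO mice the values went from 2532 through 2956 to 3186 at RT and from 947 through 1148 to 1400 at 4°C. Every mouse at 4°C lay below every mouse at RT, and this was the fall with the largest estimate among the 10 in both genotypes, 2.53-fold and 2.51-fold (log2 −1.34 ± 0.12 and −1.32 ± 0.12 (SE), limma adjusted p = 2.8e-09 and 1.5e-09). None of its 25-base stretches was shared with another gene.

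Ireb2 encodes IRP2, which binds the same elements, has no aconitase activity and is degraded when iron is plentiful (chr9:54863789-54912530). It ran from 225 through 329 to 363 normalized counts in control mice at RT and was 362, 464, 350, 432 and 483 at 4°C, so that 3 of the 5 lay above the range at RT. It rose 1.38-fold (log2 0.46 ± 0.14 (SE), limma adjusted p = 0.0084). BAT-Mcu-KO mice ran from 287 through 329 to 414 at RT and from 346 through 384 to 491 at 4°C, a difference of 0.27 that missed the threshold (95% interval −0.0053 to 0.54, limma adjusted p = 0.11). Per kb of exon, Ireb2 was 4.99% ± 1.32 of Aco1 in control mice at RT and 17.6% ± 5.91 at 4°C (SD), and 5.58% ± 1.12 and 17.03% ± 4.09 in BAT-Mcu-KO mice, again given as a description.

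**Figure D3:**
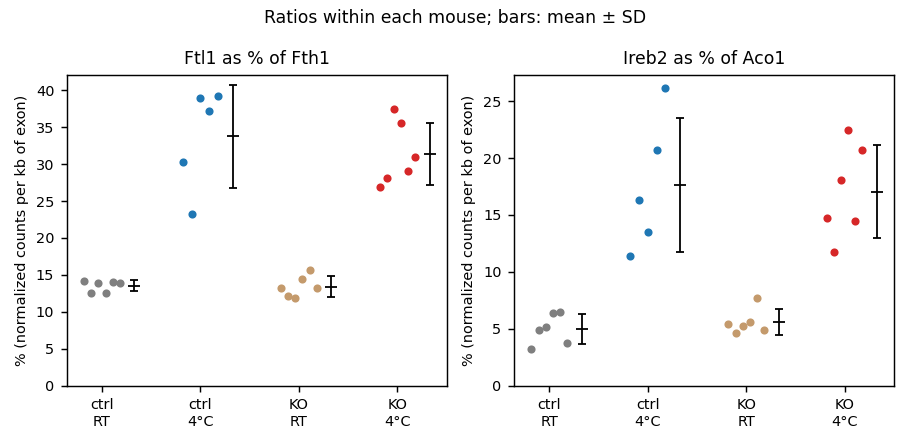
Ftl1 as a percentage of Fth1 (left) and Ireb2 as a percentage of Aco1 (right), from normalized counts per kb of exon (vertical axes from 0), with 1 point per mouse and the mean ± SD of each of the 4 groups beside the points. The mean ferritin share is 13.5% in control mice at RT and 33.8% at 4°C, and the mean sensor share 4.99% and 17.6%, with no overlap between temperatures in either genotype.

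Heme synthesis begins with Alas1, which joins glycine and succinyl-CoA in mitochondria and is the rate-limiting step outside the erythroid lineage (chr9:106233455-106248654). Its count ran from 2433 through 2669 to 3454 in control mice at RT and was 1319, 1549, 1538, 1118 and 1411 at 4°C. Among BAT-Mcu-KO mice the values went from 2166 through 2922 to 3556 at RT and from 1358 through 1740 to 2037 at 4°C. Groups were apart in both genotypes, with a 2.05-fold fall in control and a 1.70-fold fall in BAT-Mcu-KO mice (log2 −1.04 ± 0.12 and −0.76 ± 0.12 (SE), limma adjusted p = 1.3e-07 and 6.9e-06). Alas2, its erythroid counterpart, differed by 0.02 and 0.16 on the log2 scale between temperatures and was not called (limma adjusted p = 0.96 and 0.60). An antisense gene, 4930500F10Rik, overlaps 7.53% of the exon length of Alas1.

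Fech inserts ferrous iron into protoporphyrin, the last step (chr18:64452914-64490251). It ran from 1875 through 2006 to 2180 normalized counts in control mice at RT and was 1756, 1859, 1589, 1167 and 1378 at 4°C, all below the range at RT. BAT-Mcu-KO mice ran from 1805 through 2085 to 2209 at RT and from 1245 through 1686 to 1904 at 4°C, with 5 of the 6 below the range at RT. The falls were 1.31-fold and 1.25-fold (log2 −0.39 ± 0.11 and −0.32 ± 0.10 (SE), limma adjusted p = 0.0032 and 0.012).

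Cpox, which forms protoporphyrinogen earlier in the route (chr16:58670292-58717636), was scarce, with 5 to 71 reads per library, and its values carry the widest relative counting error of the 10. Control mice ran from 22.3 through 41.9 to 60.6 normalized counts at RT and had 10.1, 22.8, 26.1, 34.5 and 18.4 at 4°C, with 3 of the 5 inside the range at RT. BAT-Mcu-KO mice ran from 29.6 through 37.4 to 43.0 at RT and from 13.3 through 18.3 to 23.2 at 4°C, without overlap. It fell 1.83-fold and 1.99-fold (log2 −0.87 ± 0.28 and −0.99 ± 0.26 (SE), limma adjusted p = 0.011 and 0.0035), and in control mice the call was lost without the first mouse at 4°C (−0.63, adjusted p = 0.052).

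Across 7 enzymes of heme synthesis (Alas1, Alad, Uros, Urod, Cpox, Ppox and Fech), 5 were called lower and 0 higher in control mice in the cold, and 6 lower and 0 higher in BAT-Mcu-KO mice, with a median log2 change of −0.43 and −0.59. Over all genes, 23.7% and 21.9% were called lower. The largest estimate was that of Alad, which makes porphobilinogen in the cytosol and fell 2.74-fold and 2.35-fold (limma adjusted p = 1.2e-07 and 8.0e-07). Urod, a cytosolic decarboxylase, fell 1.34-fold and 1.37-fold. Uros, which closes the porphyrin ring, was called in neither genotype (log2 difference 0.05 and 0.17, limma adjusted p = 0.77 and 0.25). Ppox was called lower in BAT-Mcu-KO mice (−0.59, limma adjusted p = 0.0098) and differed by −0.43 in control mice (adjusted p = 0.061), and the interaction called 0 of the 7 enzymes. Uros and Ppox fall outside the rule for named genes and were added after their values were seen, so the count over the 7 was completed with those values known.

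Beyond the 10, a list of 12 other genes of heme synthesis had 2 called higher and 5 lower in control mice, and 1 and 6 in BAT-Mcu-KO mice, with medians of −0.32 and −0.28, where 46% and 43.3% of all genes were called in either direction. Among its transporters, Abcb10, a mitochondrial ABC transporter needed for heme synthesis, fell 1.95-fold and 2.00-fold, and Tmem14c, which helps move porphyrin intermediates in mitochondria, fell 1.43-fold and 1.25-fold. Slc25a39, the carrier of glutathione into mitochondria, rose 1.31-fold and 1.27-fold. Each of these passed the test in both genotypes.

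Genes of heme breakdown split within the route. Of 9 measured genes of heme breakdown and heme transport, 2 were called higher and 5 lower in control mice and 2 higher and 4 lower in BAT-Mcu-KO mice, beside the same 46% and 43.3% over all genes. The higher 2 were the heme oxygenases, which open the heme ring and release its iron. Hmox1, the inducible form, ran from 62.1 through 80.5 to 110 normalized counts in control mice at RT and from 646 through 1422 to 3060 at 4°C, and from 60.2 through 79.9 to 104 and from 470 through 609 to 1092 in BAT-Mcu-KO mice. It rose 18.5-fold and 8.65-fold (log2 4.21 ± 0.29 and 3.11 ± 0.27 (SE), limma adjusted p = 1.7e-11 and 1.3e-09), without overlap. Hmox2, the constitutive form, rose 2.34-fold and 2.56-fold. The next step fell: biliverdin reductases Blvra (1.57-fold and 1.42-fold) and Blvrb (1.82-fold and 1.70-fold) were called lower in both genotypes, as was Slc48a1, which brings heme out of lysosomes (1.60-fold and 1.46-fold). Hmox1 is also highly expressed in macrophages, of whose 6 markers 1 was called by cold in control mice and 4 in BAT-Mcu-KO mice, all higher. Their part in the Hmox1 values was not tested.

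**Figure D4:**
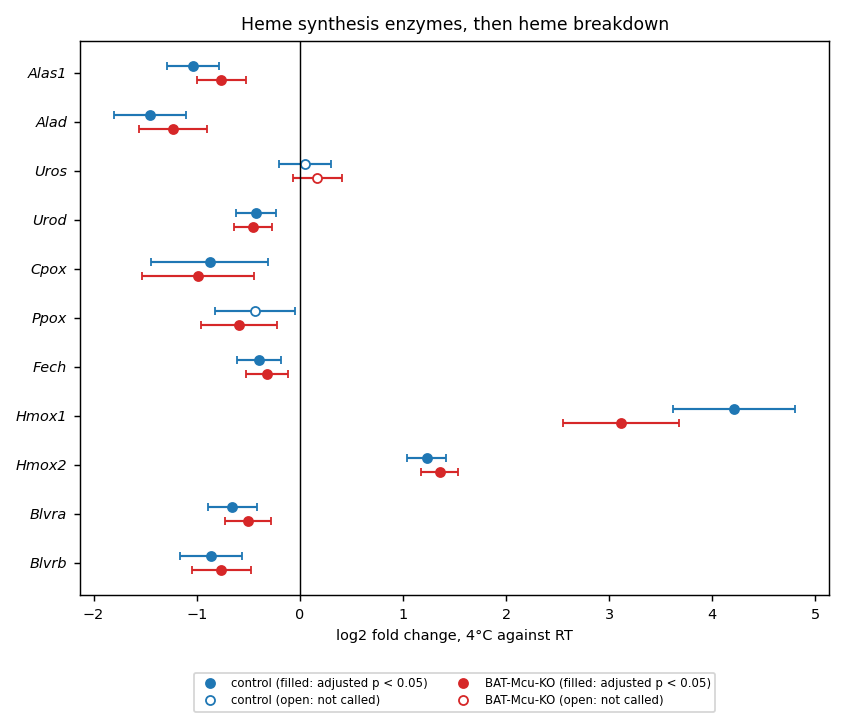
Log2 fold change between 4°C and RT for 7 enzymes of heme synthesis followed by 4 genes of heme breakdown, in control (blue) and BAT-Mcu-KO (red) mice. Bars are 95% confidence intervals, filled points passed an adjusted p of 0.05, and the estimates run from −1.46 for Alad to 4.21 for Hmox1, both in control mice.

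Among 22 other measured genes of iron transport and storage, 5 were called higher and 4 lower in control mice, and 5 and 3 in BAT-Mcu-KO mice, with medians of −0.05 and −0.11. These shares lay below the 46% and 43.3% of all genes called. Slc39a14 (ZIP14), a carrier of zinc, manganese and iron not bound to transferrin, rose 5.13-fold and 4.44-fold, from a mean of 104 ± 43.8 normalized counts at RT to 552 ± 270 at 4°C in control mice (SD). Steap3, the reductase that serves transferrin-bound iron in endosomes, fell 2.17-fold and 1.80-fold, and Heph, a ferroxidase that works with ferroportin, fell 2.21-fold and 1.76-fold. Its call in BAT-Mcu-KO mice was lost without the fourth mouse at 4°C (log2 −0.60). Ncoa4, the receptor that carries ferritin to lysosomes for breakdown, rose 1.44-fold and 1.42-fold, and Pcbp1, a chaperone that delivers iron to ferritin, rose 1.42-fold and 1.34-fold. All 5 passed the test in both genotypes.

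Iron-sulfur cluster assembly was mixed, with 9 of 25 genes called higher and 8 lower in control mice and 9 and 5 in BAT-Mcu-KO mice (medians −0.12 and 0.01), beside 22.3% higher and 23.7% lower, and 21.4% and 21.9%, over all genes. Hscb, the co-chaperone that hands new clusters on, fell 2.48-fold and 2.09-fold while its partner Hspa9 rose 1.36-fold and 1.33-fold. Fdxr, which supplies electrons, fell 1.65-fold and 1.47-fold. In the cytosolic branch, Ciapin1 rose 1.55-fold and 1.57-fold and Nubp2 fell 1.82-fold and 1.76-fold. Of 16 heme proteins and heme-attachment enzymes, 4 were called higher and 7 lower in control mice and 4 and 5 in BAT-Mcu-KO mice (medians −0.22 and −0.07), against 46% and 43.3% of all genes in either direction. Hccs, which attaches heme to the cytochromes c, rose 4.59-fold and 2.95-fold, and Cox10, which begins the conversion of heme b to the heme of cytochrome oxidase, rose 1.35-fold and 1.29-fold. Cygb, a globin, fell 1.80-fold and 1.47-fold. Sdhc and Sdhd, the subunits that anchor succinate dehydrogenase and bind its heme, were called lower in control mice (1.30-fold and 1.24-fold). In BAT-Mcu-KO mice Sdhc was called too (1.17-fold, limma adjusted p = 0.034, lost without the variance trend and without any 1 of 4 mice), and Sdhd was not (−0.09 on the log2 scale, adjusted p = 0.40).

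Levels of different genes were set side by side only roughly, as normalized counts per kb of exon. The divisor was the annotated exon length, such as 3.469 kb for Fth1 and 13.838 kb for Fech. The length of the transcripts present in BAT was not measured, so the order is approximate. The level of Ftl1 is also uncertain, because 66.0% of the 25-base stretches of its transcripts occur in other annotated genes. Control mice at RT had 9565 ± 931 normalized counts per kb of Fth1 and 1296 ± 170 of Ftl1 (SD). Aco1 followed at 659 ± 76.4 and Alas1 at 462 ± 68.9. Fech (145 ± 7.67), Tfrc (105 ± 23.2), Slc11a2 (60.2 ± 6.84), Slc40a1 (45.4 ± 11.5), Ireb2 (32.3 ± 6.38) and Cpox (6.20 ± 2.22) came after. The ranges over mice of neighbours in this order overlapped for Aco1 and Alas1, Fech and Tfrc, Slc11a2 and Slc40a1, and Slc40a1 and Ireb2. In control mice at 4°C, Aco1 (264 ± 57.2) and Alas1 (225 ± 28.8) overlapped, and Ireb2 (44.1 ± 6.31) stood above Slc40a1 (23.4 ± 7.95) with ranges that still touched. In BAT-Mcu-KO mice at 4°C the order of the means of Alas1 (275 ± 38.0) and Aco1 (258 ± 38.3) was exchanged, within their spread.

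Loss of Mcu left no called change among the 10. Between genotypes, 0 of 10 were called at RT, where 0.0478% of all genes passed, and 0 of 10 at 4°C, where 0.0751% did, by limma and also by DESeq2 and edgeR. At an unadjusted p under 0.05, 0 of 10 passed at RT against 5.15% of all genes, and 2 of 10 at 4°C against 6.98%. Those 2 were Slc40a1, with a mean of 370 ± 141 normalized counts in BAT-Mcu-KO mice at 4°C against 211 ± 71.5 in control mice (log2 difference 0.77, 95% interval 0.20 to 1.35, limma adjusted p = 0.57), and Alas1, with 1700 ± 235 against 1387 ± 178 (0.29, 0.04 to 0.54, adjusted p = 0.65). At RT the differences ran from −0.38 for Tfrc (95% interval −0.83 to 0.07) to 0.45 for Slc40a1 (−0.10 to 1.00), and at 4°C from −0.23 for Tfrc (−0.70 to 0.25) to the value of Slc40a1. At 4°C, Tfrc was also the 1 gene of the 10 whose genotypes did not overlap, with all 6 BAT-Mcu-KO mice (501 to 543 normalized counts) below all 5 control mice (559 to 631), where the groups did not overlap for 0.683% of all genes. The main model shares 1 variance per gene over the 4 groups, and Tfrc spread more at RT, but a fit of only the groups at 4°C did not call it either (limma adjusted p = 0.70, and 0.70 to 0.95 over all alternatives). At RT the genotypes overlapped for all 10 genes, against 0.218% of all genes without overlap. The intervals of Fth1, Ftl1 and Fech stayed within 0.33 of 0 at both temperatures on the log2 scale, and those of Cpox reached −0.63 and 0.45 at RT and −0.77 and 0.36 at 4°C. The intervals of Slc40a1 were about as wide as those of Cpox, and those of Tfrc were also wide. Small differences could therefore not be detected for these genes, whether scarce or not.

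**Figure D5:**
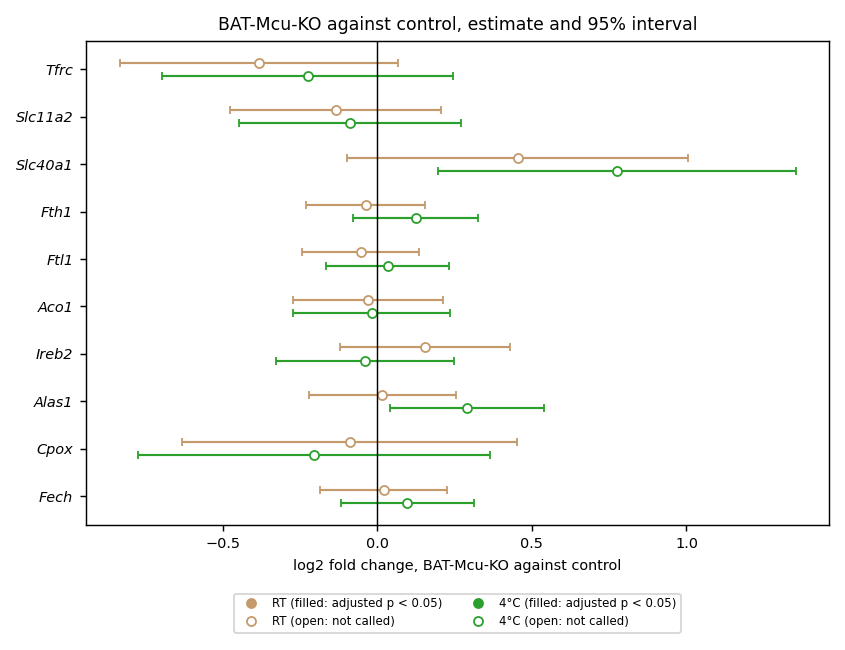
Log2 fold change between BAT-Mcu-KO and control mice for the 10 genes at RT (brown) and at 4°C (green), with bars for the 95% confidence interval. All points are open since none passed an adjusted p of 0.05, and the estimates run from −0.38 for Tfrc at RT to 0.77 for Slc40a1 at 4°C.

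The response to cold was then compared between genotypes directly. The interaction of genotype and temperature called 0 of 10 and 0% of all genes by limma at an adjusted p under 0.05, 0 of 10 at an unadjusted p under 0.05 against 5.99% of all genes, and 0 of 10 by DESeq2 and edgeR. Its estimates ran from −0.19 for Ireb2 (95% interval −0.59 to 0.20) to 0.32 for Slc40a1 (−0.48 to 1.12), and that of Alas1 was 0.28 (−0.07 to 0.62, limma adjusted p = 0.85). The calls that differed between genotypes in the cold, for Slc40a1 and Ireb2, are therefore not shown to differ. Of the wider lists, 1 gene was called by genotype: Cat, catalase, a heme enzyme of peroxisomes, was higher in BAT-Mcu-KO mice at 4°C (log2 0.58 ± 0.11 (SE), limma adjusted p = 0.035), a call lost in a fit of only those 2 groups (adjusted p = 0.48; 0.0016 to 0.48 over all alternatives) and without any 1 of 7 mice. Hmox1 at 4°C was lower in BAT-Mcu-KO than in control mice by 1.14 on the log2 scale but was not called (95% interval −1.73 to −0.55, limma adjusted p = 0.25), and its interaction was −1.10 (−1.92 to −0.28, adjusted p = 0.78).

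Within groups, the 10 genes did not move as a block. After each group's mean was removed, Pearson's r over the 23 mice was above 0 for 23 of the 45 pairs of genes, with a median of 0.01. The highest were those of Fth1 with Aco1 (0.71), Aco1 with Fech (0.65) and Fth1 with Fech (0.56), and the lowest that of Slc40a1 with Alas1 (−0.56). All values of a mouse come from 1 library and share its depth and its mix of cells, so these are descriptions.

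Over the 23 mice, the genes whose log2 values were most like those of Aco1 were Ttyh2 (r = 0.98), Naprt (0.98), A530016L24Rik (0.98), Eif4ebp1 (0.98) and Thrsp (0.98), and those most like Alas1 were Cad (0.95), Neil1 (0.94), Fas (0.94), Nlrx1 (0.94) and Tspan14 (0.94). Most of this likeness is between temperatures. With group means removed, r was 0.69 to 0.81 for the 5 genes nearest to Aco1 and 0.55 to 0.68 for the 5 nearest to Alas1. Naprt begins NAD synthesis from nicotinic acid, Eif4ebp1 restrains cap-dependent translation, Thrsp is tied to lipogenesis, Cad begins pyrimidine synthesis and Fas is a death receptor.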

How the data were processed

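BAT of 23 mice was profiled in bulk. The authors prepared Smart-seq2 libraries, read paired ends of 25 bases, aligned them to mm10 with STAR 2.4.0j, counted uniquely mapped exonic reads with HTSeq irrespective of strand, kept those genes that reached 8 reads in 6 or more libraries and divided by DESeq2 size factors. The deposited values are these normalized counts (signal in relative reads), and dividing by each library's step, its value for 1 read, gave whole reads within 0.01. In the sixth control library at RT the step lay close to 1 and was taken the same way. Tables of the authors' own fold changes and p-values were not used. Values were analysed as log2(normalized count + 1) with limma 3.58.1 in R 4.3.3 (4 group means, trended variance, Benjamini-Hochberg, threshold 0.05), so fold changes of scarce genes are understated. DESeq2 1.42.0 and edgeR 4.0.16 ran on the recovered reads. On simulated counts for cold in control (14651 genes, 200 of them changed), limma found 109 of the 200, with 4 false calls. It found 38 of 58 genes changed 2-fold and 52 of 60 changed 4-fold, and the rest of the 200 were changed less. Far more genes were called in the data, so these rates may not carry over. Limma p-values weigh a difference of group means against the spread between mice, pooled over the 4 groups and moderated along the trend. The members and lists were chosen with earlier results of these data known. Named were the 10 genes, Mcu, Ucp1, the 5 genes per pathway list with the smallest adjusted p by cold in control, list genes called by genotype or interaction, and the 5 genes most correlated with the 2 members changed most by cold in control. Positions and UTRs are from GENCODE M21 on GRCm38, the build of the files; 94.1% of symbols matched. One item is not reported here. Figures were drawn with matplotlib 3.10.9.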

Additional observations from a re-analysis of the deposited data

Results flagged for a closer look

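Of 40 groups of values (10 genes in 4 groups), 2 held a mouse set apart from the rest of its group by more than Dixon's 95% critical value, and chance alone flags about 1 in 20. Slc40a1 stood at 334 normalized counts in the first control mouse at 4°C, with a gap of 0.74 of the group's range to the nearest of the others. Ftl1 stood at 3518 normalized counts in the third BAT-Mcu-KO mouse at 4°C, with a gap of 0.70 of the range.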

How the results depend on the processing

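The number of the 10 genes called kept within 1.5 times of its value under every alternative run: other pseudocounts, filters, scalings, limma without the trend, a fit of only the groups compared, the replicate block, DESeq2 and edgeR. Leaving out each mouse in turn, it ran from 7 to 9 for cold in control, from 5 to 8 for cold in BAT-Mcu-KO, and stayed at 0 to 0 for genotype at RT, at 4°C and the interaction. Over all genes, 7 were called by genotype at RT, against 3 in a fit of only those groups and 20 by DESeq2. At 4°C 11 were called, against 7 without the trend, 2 in a fit of only those groups, 23 by DESeq2, 6 by edgeR and 3 to 16 with 1 mouse left out. The interaction called 0, against 28 by DESeq2 and 0 to 1 with 1 mouse left out. Scaling to the 75th percentile moved the median log2 change of all genes by cold in control from −0.02 to −0.13 and the share of higher calls from 48.5% to 38.2%. Tfrc, not called, changed sign. Tfrc by cold in BAT-Mcu-KO was −0.00104 under quantile normalization, −0.0849 by DESeq2 and −0.0896 by edgeR, and ran from −0.0705 to 0.292 with 1 mouse left out (below 0 without replicates 1, 3 or 4 at RT). Tfrc by cold in control ran from −0.161 to 0.0191 with 1 mouse left out (above 0 without the first mouse at RT). Cat by cold in control, also not called, became −0.0297 under 75th percentile scaling and ran from −0.0128 to 0.148 with 1 mouse left out. Hmox1 by genotype at 4°C was called by DESeq2 (−1.27, adjusted p = 0.040) and without the second control mouse at 4°C (−1.45), with adjusted p from 0.040 to 0.66 over all alternatives. Slc40a1 by cold in BAT-Mcu-KO had adjusted p from 0.013 to 0.15 over all alternatives.

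Replicate numbers are shared between groups, but same-numbered mice did not deviate together. The correlation of their deviations ran from −0.20 to 0.22, and no source ties the numbers to litters or days, so no pairing was assumed. A fit with the number as a block called 7 genes by genotype at 4°C, and Tfrc by cold in control became 0.00061.

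Depth limits Cpox most, with as few as 5 reads in a library.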
